A study of Homo sapiens with 2 samples.

Results

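The 3 human immunoglobulin loci and the 500 kb on both sides of each were examined for peaks of tagged ETV6, an ETS-family transcription factor that mostly represses its targets, in the pre-B leukaemia line Reh. The members are all listed peaks whose summit lies in one of 3 windows in hg19 coordinates. These are IGH, the heavy chain locus, at chr14:106032614-107288051, IGK, the kappa light chain locus, at chr2:89156874-90274235, and IGL, the lambda light chain locus, at chr22:22380474-23265085, each with its flanks. There were 788 members among 315787 listed peaks, with 200 in the IGH window, 156 in the IGK window and 432 in the IGL window. Of these, 341 lay inside the loci and 447 in the flanks.

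The mapped sample was a pool of Reh cells transduced with pCCL ETV6-HA, and the comparison pool was Reh cells transduced with untagged pCCL ETV6, both taken through the same anti-HA bead pulldown after 2 weeks of culture. Each transduction used 200 ng of virus with polybrene at 8 µg/mL. Reh is an established line with the t(12;21) translocation, and cells of both pools carried an ETV6 vector. The design speaks of triplicates, but the tagged pool is 1 library with 1 peak list, so there is no replicate error and nothing was tested between samples. Intervals are exact 95% intervals (Poisson for densities, Clopper-Pearson for shares) and cover counting error only.

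The immunoglobulin loci are the genes that B-cell precursors cut and rejoin. In V(D)J recombination the RAG recombinase joins a variable segment, in IGH also a diversity segment, to a joining segment near the constant genes, and the DNA between the joined ends is lost from that chromosome or, at part of IGK, turned round. The variable segments are also families of similar copies, IGK holds them in a pair of inverted near-copies, and the hg19 assembly has unsequenced gaps near IGK, so short reads can be hard to place there. Both rearranged DNA and poorly mappable DNA would be read here as stretches without peaks. These sources cannot be told apart in a list of peaks, which shows where reads piled up and not how many reads lay elsewhere.

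The RefSeq annotation of GRCh38.p14, another build, was used for names and order only. It lists 48 IGHV segments and 79 IGHV pseudogenes, 27 IGHD segments, 6 IGHJ segments and 9 IGH constant regions. For kappa it lists 44 IGKV segments, 32 IGKV pseudogenes of the segment class, 5 IGKJ segments and the single constant region IGKC. For lambda it lists 38 IGLV segments, 7 IGLJ segments and 4 IGL constant regions. On the hg19 scale used here, IGH and IGK begin with their constant genes and run towards the variable segments, while IGL begins with the variable segments. The parts were set off at round distances from general knowledge of this layout, not from an hg19 annotation, so their borders are approximate. In IGH the constant part was taken as the first 290 kb, the diversity and joining part as 290 to 370 kb, and the variable part as the rest. In IGK the constant and joining part was the first 20 kb. In IGL the variable part was the first 850 kb, and the joining and constant part the rest.

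Stretches of at least 50 kb without a summit took up 94.85% of the IGK interval and 51.2% of the IGH interval. The neighbourhood on the left of both loci held peaks. Peaks filled the IGH constant part, stopped near the joining segments and resumed far out among the variable segments. In IGK all peaks of the locus lay in 1 crowded block. In IGL peaks were present over most of the locus, with 2 long stretches missing, one at the outer end of the variable part and one across the border of the variable and joining parts.

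**Figure D1:**
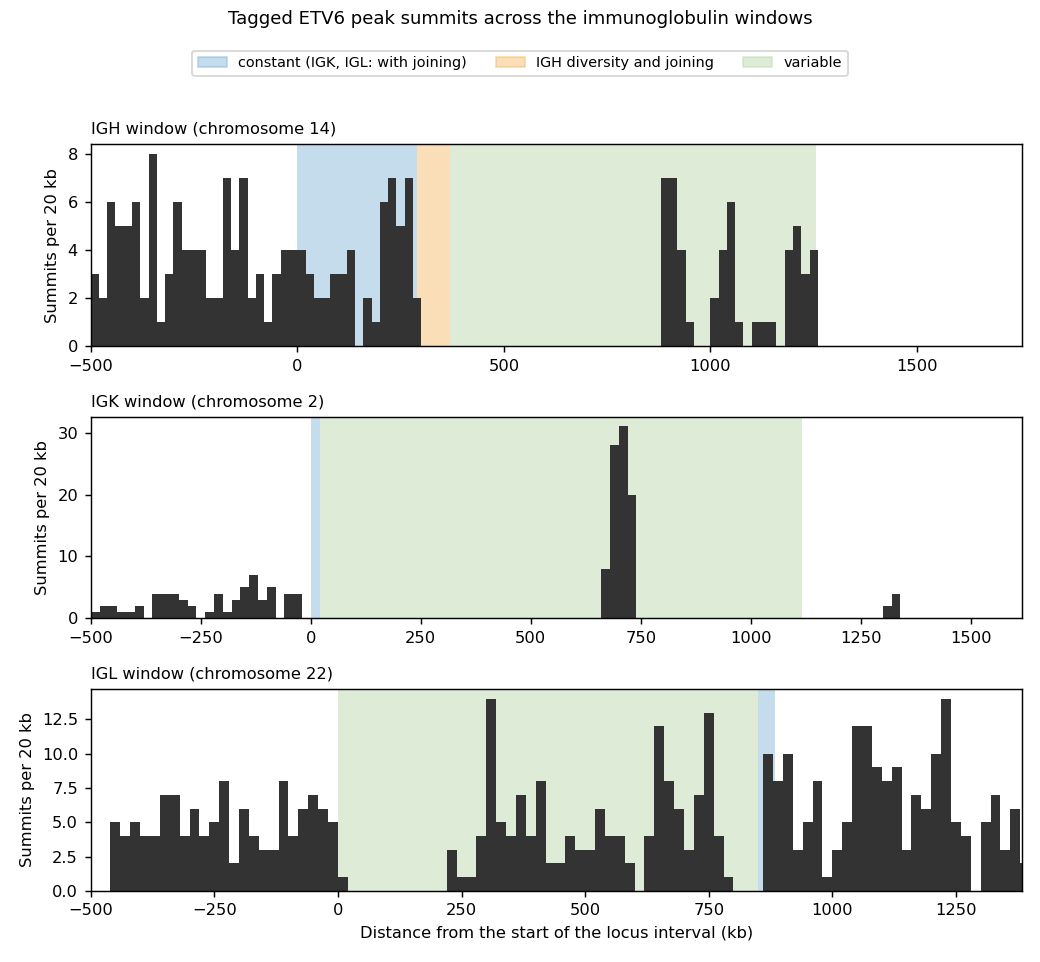
Number of peak summits per 20 kb along the 3 windows, with the distance in kb from the start of each locus interval on the x axis and the parts of the locus shaded; unshaded ground is flank. The long empty stretches lie at 296 to 887 kb in IGH, on both sides of a block of 87 summits in IGK, and at 3.47 to 221 kb and 784 to 870 kb in IGL; in IGH no peak is listed beyond the right end of the locus except 1 within 129 bp.

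In IGH, the density of summits was 80.5 per Mb over the locus (65.5 to 97.8, 101 peaks), against 196 per Mb in its left flank (159 to 239, 98 peaks) and 112 per Mb over the autosomes other than 3 and 21. The right flank could not be used as a reference. IGH lies at the end of the long arm of chromosome 14, and the last listed peak of that chromosome ended at 107288180, only 129 bp past the interval. The constant part, which holds the genes for the heavy chain classes from IGHM onwards, had 172 summits per Mb (128 to 227, 50 peaks), an interval that overlaps that of the left flank. The variable part had 56.5 per Mb (41.9 to 74.5, 50 peaks), an interval that lies wholly below that of the left flank. The diversity and joining part had 1 peak in 80 kb. The ratio of the locus to its flanks was 0.406 with the 129 bp on the right counted in. It was 0.4105 to the left flank alone, a setting chosen after seeing the data. When only peaks with q of at most 0.01 were counted, the ratio to its flanks was 0.963.

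The longest stretch without a summit in IGH was 591 kb, between summits at 106328407 and 106919331. It took up 74.2 kb of the diversity and joining part and 517 kb of the variable part. At the density of the left flank a stretch of that length would hold 116 summits, and at the density of the autosomes 66.1. Only 55 of 315467 autosomal distances between neighbouring summits were at least as long (0.0174%), and 34 of those 55 were of 1 Mb or more. The median autosomal distance was 4.17 kb. The other long stretches of IGH were much shorter, 51.4 kb from 106986465 to 107037858 and 43.9 kb from 107175291 to 107219171. In the left flank the longest distance was 20.6 kb.

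The peak at the near edge of the 591 kb stretch was the strongest of the IGH locus. It lay at chr14:106328313-106328503, was 191 bp wide and reached 27 reads at its summit, a fold enrichment of 5.30. Its background was 4.29 reads, the level shared by 95.8% of listed peaks. Of all listed peaks, 0.714% were as high. This was the only peak listed in the diversity and joining part, 296 kb from the start of the interval, and that count depends on the approximate borders, since the part held 2 peaks with its borders 10 kb to the left and 0 with them 10 kb to the right. The IGH intronic enhancer, known for binding sites of ETS factors, lies between the joining segments and IGHM. Whether this peak overlies it was not tested, since no hg19 annotation was used. The peak at the far edge was weak, with 13 reads at chr14:106919324-106919377.

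Beyond the far edge peaks were listed again in the variable part, but unevenly. A block of 19 peaks spanned 67.1 kb, from 106919331 to 106986465, with 268 summits per Mb of span. The next block held 32 peaks over 250 kb, to the last listed summit, with 124 per Mb. The last of these 32 peaks lay just right of the locus, not in the variable part. Both blocks are bounded by their own peaks, which raises their densities. The longest distance inside the second block was 43.9 kb, against 20.6 kb in the left flank. The strongest peak of the variable part was in the first of these blocks, at chr14:106932086-106932259, with 19 reads and a fold of 3.78. In the constant part 2 peaks shared the highest values, 20 reads and a fold of 3.97, at chr14:106126692-106127376 and chr14:106284333-106284659. The first of these was 685 bp wide, the widest of all members. In the left flank, where the annotation places TMEM121, CRIP1, CRIP2 and MTA1 (a subunit of a nucleosome remodelling and deacetylase complex) next to IGH, 2 peaks shared the highest values, 19 reads and a fold of 3.78, at chr14:105718433-105718560 and chr14:105870483-105870653. The single peak right of the locus, at chr14:107288110-107288180, had 14 reads.

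In IGK, 87 peaks lay in the locus, or 77.9 per Mb (62.4 to 96.0). The left flank had 126 per Mb (96.8 to 161, 63 peaks) and the right flank 12.0 per Mb (4.40 to 26.1, 6 peaks). Each flank was counted at its full 500 kb, with no allowance for unsequenced gaps. The density of the locus was thus 1.13 times that of both flanks in sum and 0.618 times that of the left flank alone, so the direction depends on which flank is set beside it. The average over the locus does not describe its layout, since all 87 peaks lay in a block of 57.6 kb that made up 5.16% of its length.

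The part of IGK that holds IGKC and the joining segments had 0 peaks in 20 kb, with an interval of up to 184 per Mb that does not separate it from the left flank by itself. It was part of a stretch of 703 kb without a summit, from 89129396 to 89832603. That stretch began 27.5 kb left of the locus, ran through the constant and joining part and took up 656 kb of the variable part. At the left flank's density it would hold 88.6 summits, and at the density of the autosomes 78.6. Of autosomal distances, 45 were at least as long (0.0143%). The annotation places IGKDEL, the kappa-deleting element whose recombination removes IGKC, between RPIA and IGKC. RPIA is an enzyme of the pentose phosphate pathway. Where IGKDEL lies relative to the first edge of the stretch was not tested in hg19. The edge peaks were weak, with 13 reads at chr2:89129385-89129439 and 12 reads at chr2:89832567-89832618.

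A second stretch without summits followed the block, 578 kb from 89890197 to 90468445, of which 384 kb lay in the locus and 194 kb in the right flank. Of all autosomal distances, 56 were at least as long (0.0178%), and 22 of those 56 were under 1 Mb. The 3 longest stretches of IGH and IGK were among these 22. The third longest distance reaching into the IGK locus was only 2.97 kb. To the right of the last summit of the window, at 90485399, the next one was 1179 kb away. In the left flank the longest distance was 50.2 kb. Unsequenced gaps of the assembly were not marked in the peak list. How much of the 2 IGK stretches and of the right flank is sequence that could be mapped was therefore not tested.

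The IGK block was crowded, and its peaks were wider and had a raised background more often than those of the left flank. It held 1493 summits per Mb of its span, from 89832603 to 89890197, with a median spacing of 0.546 kb, and its peaks covered 28.2% of it. The whole block fell in 1 bin of 100 kb, and 94 of the 27908 autosomal bins of that size held at least as many summits. Of its peaks, 63 of 87 (72.4%) had another summit within 500 bp, against 14.3% of autosomal peaks. Median width was 148 bp in the block, 87 bp in the left flank and 99 bp over the list.

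The background, the read level against which the peak caller set each peak, was also raised more often in the IGK block. A background above the shared level of 4.29 reads was found at 30 of its 87 peaks (34.5%, 24.6 to 45.4), against 1 of 63 in the left flank. Over the whole list 4.19% of peaks had one. The background reached 8.46 reads, and 27 of the 30 had at least 4.6 reads, with a median of 5.17 reads. The other 57 peaks of the block were at the shared background. Crowding and raised background were seen together in this 1 block, and whether they are related was not tested. The part of raised background in the number of peaks listed there was not tested either. In the IGH locus 6 of 101 peaks had a raised background (5.94%, 2.21 to 12.5), against 3 of 98 in its left flank, and in the IGL locus 7 of 153 (4.58%, 1.86 to 9.20), against 4 of 279 in its flanks (1.43%, 0.392 to 3.63). Without the IGK block, 21 of 701 members had one (2.996%).

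The strongest peak of the IGK block, at chr2:89850149-89850423, had 31 reads at a background of 5.17, a fold of 5.19. The strongest peak of the left flank, at chr2:89028953-89029155, had 31 reads over the shared background and a fold of 6.05, and the next, at chr2:89073293-89073457, had 32 reads over 5.64 reads and a fold of 4.97. In the right flank all 6 peaks lay within 17.0 kb, and 2 of them, at chr2:90482115-90482225 and chr2:90485310-90485465, each had 27 reads and a fold of 5.30. These flank peaks are named as members only, since no gene could be assigned to them without an hg19 annotation. In the annotation EIF2AK3, a kinase of the unfolded protein response, and RPIA are the protein-coding genes next to IGK on its left.

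**Figure D2:**
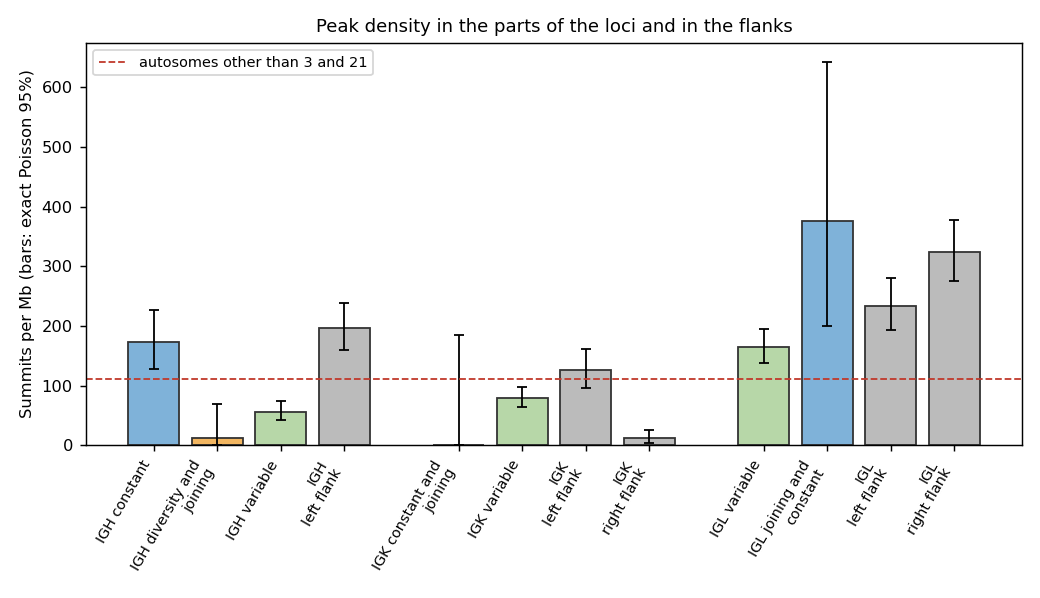
Peak summits per Mb in the parts of each locus (coloured) and in its flanks (grey), with exact Poisson 95% intervals as error bars and a dashed line at 112 per Mb for the autosomes other than 3 and 21; the right flank of IGH is left out because the listed peaks end there. The IGH variable part (56.5 per Mb) lies below its left flank (196 per Mb), while all parts of IGL lie above the line.

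IGL was denser than the other loci, and its longest stretch was shorter than theirs. The locus had 173 summits per Mb (147 to 203, 153 peaks), against 279 per Mb in both flanks together (247 to 314, 279 peaks) and 207 per Mb over chromosome 22. The ratio of the locus to its flanks was 0.620. The left flank had 234 per Mb (194 to 280, 117 peaks) and the right flank 324 (276 to 378, 162 peaks). The variable part had 165 per Mb (139 to 194, 140 peaks), and its interval lay below that of the right flank and met that of the left flank. The joining and constant part had 376 per Mb (200 to 642), from only 13 peaks, and its interval overlaps those of both flanks.

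The longest stretch of IGL was 217 kb, from 22383945 to 22601076, all within the variable part. It started 3.47 kb from the outer end of the locus. It would hold 50.8 summits at the left flank's density and 24.3 at the density of the autosomes. Of autosomal distances, 170 were as long (0.0539%). The annotation lists 19 of 73 IGLV segments and segment pseudogenes before VPREB1, which lies among them and encodes a component of the surrogate light chain of pre-B cells. Deletions that take VPREB1 are known in B-precursor leukaemia. The position of VPREB1 relative to the far edge of the stretch was not tested in hg19. The edge peaks had 13 reads, at chr22:22383943-22384020, and 15 reads, at chr22:22601029-22601133.

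The second stretch of IGL was 85.2 kb, from 23164747 to 23249971. It took up 65.7 kb of the variable part and 19.5 kb of the joining and constant part, and ended 15.1 kb before the end of the locus. It would hold 19.9 summits at the left flank's density and 9.53 at the density of the autosomes, and 1414 autosomal distances were as long (0.448%). Both edge peaks had 16 reads, at chr22:23164640-23164775 and chr22:23249901-23250112. All 13 peaks of the joining and constant part therefore lay beyond the stretch, in the last 15.1 kb. The next longest distance in the locus was 27.8 kb, from 22974068 to 23001818.

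Between the stretches, the middle of IGL was filled with peaks. The block from 22601076 to 23164747 held 139 peaks in 564 kb, or 245 per Mb of span, against 256 per Mb in the block to its left and 338 in the block to its right. These blocks are bounded by their own peaks, which raises their densities, and the side blocks hold a few peaks of the locus as well as its flanks. The annotation places ZNF280B and ZNF280A (zinc finger genes), PRAME (a tumour antigen gene) and GGTLC2 among the variable segments, so this stretch of chromosome holds genes other than immunoglobulin ones. The strongest peak of the variable part, at chr22:22764580-22764770, had 27 reads and a fold of 5.30. In the joining and constant part the strongest was at chr22:23262974-23263233, with 18 reads and a fold of 3.59.

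The flanks of IGL held the strongest member of all. The peak at chr22:22296831-22297241, in the left flank, was 411 bp wide with 33 reads and a fold of 6.43, and it ranked at place 712 of the whole list by fold. A second peak of this flank, at chr22:22280787-22280985, had 23 reads and a fold of 4.54. PPM1F, a protein phosphatase, and TOP3B, a topoisomerase, precede IGL in the annotation. On the right, where RSPH14, GNAZ, RAB36 and BCR (the partner of ABL1 in the Philadelphia translocation) follow, the strongest peak was at chr22:23480258-23480486 with 25 reads and a fold of 4.92. The longest distance wholly inside the right flank was 45.0 kb and inside the left flank 19.2 kb. A stretch of 116 kb from 21811093 to 21926971 crossed the outer border of the left flank and took up 46.5 kb of it.

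Over the 3 loci together, stretches of at least 50 kb between summits, a limit chosen after the distances were seen, took up 642 kb of IGH (51.2%), 1060 kb of IGK (94.85%) and 302 kb of IGL (34.2%). Each locus was reached by 2 such stretches. By number and not by length, 1.71% of all autosomal distances between neighbouring summits were that long. Of distances wholly inside a locus, 2 of 100 were that long in IGH (2%), 0 of 86 in IGK and 2 of 152 in IGL (1.32%). The share of autosomal length in such stretches was not computed. In bins of 100 kb, 16 of 29 bins wholly inside the loci held 0 summits (55.2%, 35.7 to 73.6), against 3 of 20 in the flanks (15%, 3.21 to 37.9) and 6.54% of autosomal bins. These intervals treat bins as independent. A long stretch empties several neighbouring bins, so the intervals are too narrow. With stretches of at least 1 Mb left out, 1 of 18 flank bins was empty (5.56%). By locus, 5 of 11 bins were empty in IGH, 9 of 10 in IGK and 2 of 8 in IGL. All 3 empty flank bins lay in the IGK window.

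**Figure D3:**
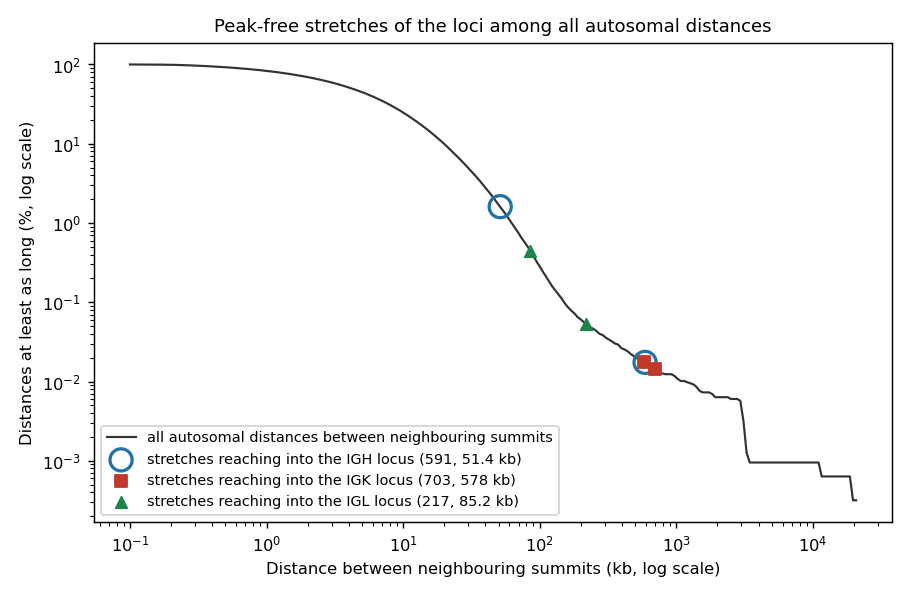
Share of all autosomal distances between neighbouring summits that are at least as long as the length on the x axis (both axes logarithmic), with the stretches of at least 50 kb that reach into IGH (open circles), IGK (squares) and IGL (triangles). The IGH stretch of 591 kb and the IGK stretches of 703 and 578 kb sit where under 0.02% of distances are as long.

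Median heights were alike in most of the windows. The median pileup was 14 reads in the IGH and IGL loci, in all flanks pooled and over the whole list, and 16 reads in the IGK locus. At least 16 reads were reached by 29 of 101 peaks in the IGH locus (28.7%, 20.2 to 38.6), against 13 of 98 in its left flank (13.3%, 7.26 to 21.6). These intervals overlap only between 20.2 and 21.6. In IGK the numbers were 46 of 87 (52.9%, 41.9 to 63.7) in the locus and 14 of 63 (22.2%, 12.7 to 34.5) in the left flank. In the right flank they were 4 of 6 (66.7%, 22.3 to 95.7). The intervals of locus and left flank do not overlap, but they treat peaks as independent. All 87 locus peaks lay in the crowded block, where 63 had another summit within 500 bp. The 30 block peaks with a raised background had a median of 16 reads and a median fold of 2.83. The 57 at the shared background had medians of 15 reads and 3.03. The part of the background in these heights was not tested. In IGL at least 16 reads were reached by 31 of 153 peaks (20.3%, 14.2 to 27.5) in the locus, against 64 of 279 (22.9%, 18.1 to 28.3) in the flanks. Of all listed peaks 21.2% reached 16 reads. A q of at most 0.01 was reached by 100 of the 341 peaks in the loci (29.3%, 24.6 to 34.5), against 94 of 447 in the flanks (21.0%, 17.3 to 25.1) and 20.7% of the list. By locus, that q was reached by 29 of 101 peaks in IGH (28.7%), 42 of 87 in IGK (48.3%) and 29 of 153 in IGL (18.95%). In their flanks the shares were 12.1%, 26.1% and 22.9%. Without the IGK block, 152 of 701 members reached that q (21.7%) and 155 reached 16 reads (22.1%).

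**Figure D4:**
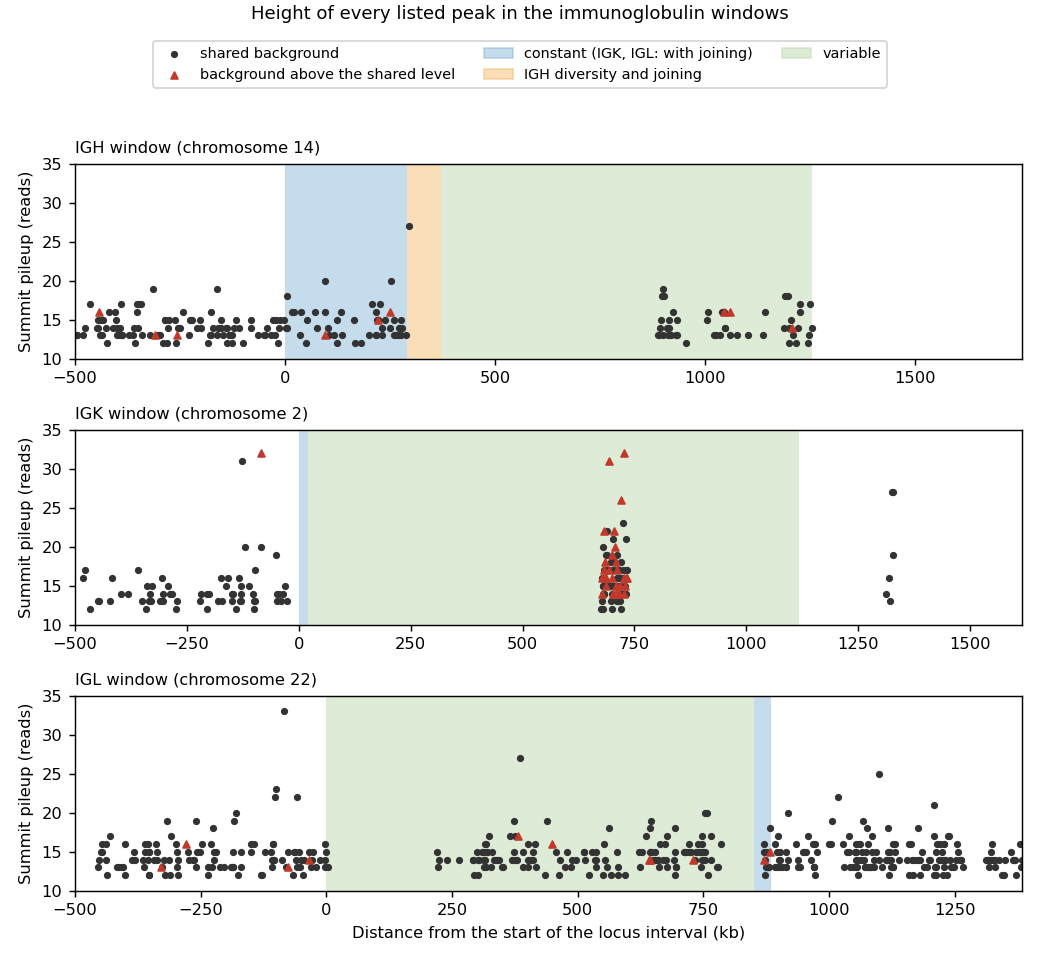
Summit pileup in reads of every member against its distance in kb from the start of the locus interval, with triangles for peaks whose background was above the shared level of 4.29 reads. Most members lie between 12 and 20 reads, and the triangles gather in the IGK block, where 30 of 87 peaks are of that kind.

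Members also differed in how closely they lay. The median distance to the nearest summit of the same window was 1.71 kb in IGH, 0.534 kb in IGK and 1.18 kb in IGL, against 2.09 kb over the autosomes. Another summit within 500 bp was found for 26 of 200 members in the IGH window (13%), near the 14.3% of all autosomal peaks. The count was 75 of 156 in the IGK window (48.1%), and 63 of those 75 were peaks of the crowded block. In the IGL window it was 95 of 432 (21.99%).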

How the data were processed

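The authors deposited 1 narrowPeak list for the tagged pool and it was the only file used. The tools named in the submitters' processing notes are Bowtie2 2.2.3 and MACS2 2.1.1.20160309, with build hg19; which did what, with which control, is not given in the sources used here. The untagged pool has no list of its own here. The deposited fold column is a linear ratio of summit pileup to background, and the deposited −log10 columns give p and q at the summit, with q of at most 0.1. The deposited score was not used.

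Pileup and background were recovered from fold and p, as fold = (pileup + 1)/(background + 1) with a Poisson tail. Pileup came out whole within 0.05 reads for all peaks but 1. At the shared background, which 95.8% of peaks had, 1 read changes the fold by 0.189. Members were taken by summit, and a flank ended at the last listed peak. Stretches are distances between neighbouring summits. Positions are 1-based.

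Named peaks are the strongest by q of each part, with 2 ties named after their values were seen, and the 10 strongest by fold; named stretches are the 3 longest of each locus and the longest of each flank, together with the peaks at their edges, which were added after the stretches were seen. Members, parts and limits were chosen with earlier results of these data known. On 20000 simulated peaks the solving step recovered 100% of pileups. Alternatives covered thresholds, flanks, bins, merging and borders. No replicate existed to leave out, and no sequence of hg19 was used here. Software was scipy 1.17.1, pandas 2.3.3 and numpy 2.4.6 under Python 3.11.15, with plots by matplotlib 3.10.9.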

Additional observations from a re-analysis of the deposited data

How the results depend on the processing

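Of 68 alternatives, 52 kept a share or a density inside its 95% interval, or another value within 1.5 times, 13 moved it further and 3 turned the direction of a ratio. All 3 were for the ratio of IGK to its flanks, 1.13 with flanks of 500 kb, which was 0.944 with flanks of 200 kb, 0.750 with only peaks at the shared background and 0.618 with the left flank alone, the last chosen after seeing the data. At q of at most 0.01 the windows kept 41 (IGH), 60 (IGK) and 93 (IGL) members by construction, and the ratio of locus to flanks was 0.963 in IGH and 2.09 in IGK. The cause was not tested. Merging peaks within 1000 bp left 66 members in the IGK window. With empty bins taken out of the length, the ratio was 0.675 in IGH and 4.06 in IGK. Among IGK locus peaks of exactly 15 reads, 23.5% had a raised background (4 of 17). The IGH diversity and joining part, 12.5 peaks per Mb, had 0 with borders 10 kb to the right and 25 with borders 10 kb to the left. The share of empty autosomal bins, 6.54% at 100 kb, was 10.7% at 50 kb, 25.4% at 20 kb and 2.33% with stretches of at least 1 Mb left out, while it was 54.8%, 60% and 55.2% in the loci and 17.8%, 22.5% and 5.56% in the flanks. The longest stretch of each locus stayed within 1 kb of its length in both alternatives tried, q of at most 0.05 and peak ends in place of summits.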
